A study of Homo sapiens with 8 samples.

Results

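The mitotic entry kinases, cyclins and activators of the anaphase-promoting complex (APC/C) were followed through 10 genes: CCNB1, CCNA2, CDK1, PLK1, AURKA, CDC20, FZR1, PTTG1, CDC25B and WEE1. They were taken by symbol from the 16082 genes of the deposited count table, all 10 were found, and all 10 were among the genes with enough counts to be tested. The cells were KYSE150, a long-established line from a human squamous carcinoma of the esophagus. Poly(A) RNA from 4 control samples (titled NC, genotype Control) was compared with 4 samples (titled KD, genotype ShHNRNPC) in which a short hairpin RNA targets HNRNPC, a nuclear RNA-binding protein that acts in splicing. The labels give no treatment for either group. They do not name the hairpin of the control, the time after its introduction, or separate cultures. P-values here thus set the difference between the groups only against the scatter of these samples, and that scatter may be technical. The whole study rests on 1 cell line. Gene positions below are on GRCh38, from RefSeq.

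Entry into mitosis is driven by CDK1 bound to cyclin B. The kinase WEE1 holds this complex inactive by phosphorylating CDK1, CDC25 phosphatases remove that phosphate, and the kinases AURKA and PLK1 feed into the switch. Exit is driven by the APC/C, a ubiquitin ligase that CDC20 activates in metaphase and FZR1 (also called CDH1) activates in late mitosis and G1, and whose substrates include cyclins A and B, PLK1, AURKA and securin, the product of PTTG1. Most of these transcripts are made in G2 and M phase, under promoters with a cell cycle homology region (CHR) and CCAAT boxes, which bind the MuvB complex with B-MYB or FOXM1 and the factor NF-Y.

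Whether promoter words go with the size of a rise was not tested. Promoter stretches of 5 of the genes, picked with the changes known, are shown beside the words known from this class of promoter. They include that of FZR1, the co-activator that changed less than CDC20. Each runs 5′ to 3′ over the 130 bases before the first RefSeq start of the gene (GRCh38.p14, plus strand in each case). The positions are chr5:69167020-69167149 for CCNB1, chr16:23678759-23678888 for PLK1, chr1:43358851-43358980 for CDC20, chr5:160421725-160421854 for PTTG1 and chr19:3506181-3506310 for FZR1. Capitals mark a match on either strand. The CHR words searched were TTTGAA and the variant TTCGAA, and the CCAAT box was searched as CCAAT. The E2F words were TTTGGCGC with its shorter form TTGGCGC, TTTCGCGC, and the word TTCCCGC, on both strands; no other kinds were searched.
CCNB1: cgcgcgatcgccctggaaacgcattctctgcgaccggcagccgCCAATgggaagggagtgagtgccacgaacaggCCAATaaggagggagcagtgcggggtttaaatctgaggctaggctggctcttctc
PLK1: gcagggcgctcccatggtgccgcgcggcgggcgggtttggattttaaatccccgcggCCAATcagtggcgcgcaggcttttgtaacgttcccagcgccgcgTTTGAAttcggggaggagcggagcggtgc
CDC20: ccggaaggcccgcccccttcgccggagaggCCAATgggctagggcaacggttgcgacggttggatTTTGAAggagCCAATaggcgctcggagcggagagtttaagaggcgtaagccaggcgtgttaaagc
PTTG1: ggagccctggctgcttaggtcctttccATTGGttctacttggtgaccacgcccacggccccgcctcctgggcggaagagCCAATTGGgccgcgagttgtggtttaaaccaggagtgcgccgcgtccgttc
FZR1: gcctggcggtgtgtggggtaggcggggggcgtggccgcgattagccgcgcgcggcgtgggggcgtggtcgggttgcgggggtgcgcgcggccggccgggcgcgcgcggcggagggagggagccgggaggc

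The stretch of CCNB1 holds CCAAT at -87 and -55, 32 bases apart, counted from the start. PLK1 has CCAAT at -73 and TTTGAA at -29. CDC20 has CCAAT at -100 and -55 with TTTGAA at -65 between them. PTTG1 has the box at -103 and an overlapping pair on opposite strands at -51 and -48, and the printed FZR1 stretch holds none of the words.

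RefSeq promoters (250 bases before to 50 after a start) were matched for 8 of the 10 genes, with 14 starts. AURKA and WEE1 had no entry. A CCAAT box was in 10 of the 14 windows and in 7 of the 8 genes, against 34.6% of all 35116 promoters of the same length and 35.0% of the 14423 promoters of tested genes. FZR1 was the gene without one. TTTGAA or TTCGAA was in 6 windows and 5 genes (CDK1, PLK1, CDC20, FZR1 and CDC25B) against 16.4% of all promoters and 11.8% of those of tested genes. Other forms of the CHR were not searched, so a window without these words is not shown to lack one. An E2F word was in 4 windows and 3 genes (CDK1, FZR1 and CDC25B) against 9.62% of all promoters and 14.1% of those of tested genes. The FZR1 match, TTCCCGC at -12, belongs to its second start (chr19:3522956), inside the gene, and use of that start was not tested. The shares are per promoter and can be set beside the window counts only, because a gene can have several windows. Windows of 1 gene can share bases, as at CDK1 and PTTG1. The FZR1 CHR word lay at -226, outside the printed bases. CDK1, whose bases are not printed, rose about as little (0.51 on the log2 scale) as FZR1 (0.54). A window of CDK1 holds CCAAT at -78 and -46 and TTTGAA at -69 and -13. WEE1 (1.49) and AURKA (1.09), the members that rose most, are those without an entry. A match of letters describes the window and is not evidence of a bound factor.

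**Figure D1:**
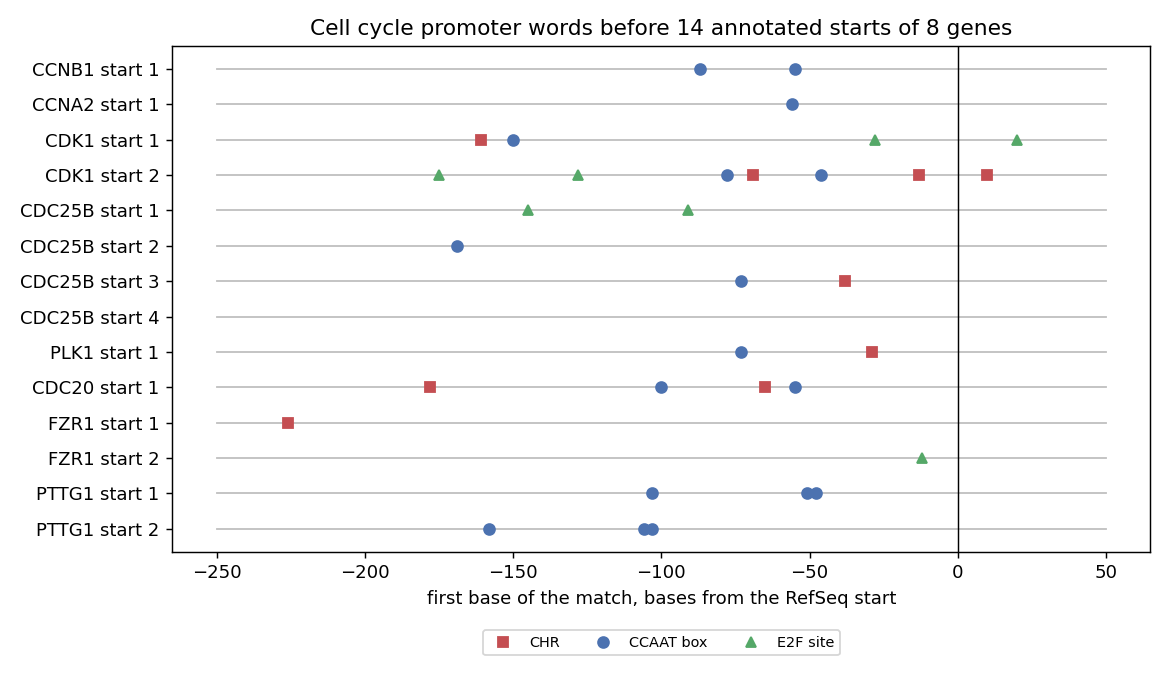
Matches of 3 kinds of promoter word (colours and shapes) by distance in bases from each of 14 RefSeq starts of 8 genes. CCAAT boxes lie between -169 and -46 in the 10 windows that hold one, and neither FZR1 window has one.

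HNRNPC itself was at 601, 589.9, 571 and 587 counts per 1000000 (CPM, scaled by library size and TMM factors) in the control libraries and at 33.8, 32.9, 32.5 and 36.5 in the knockdown libraries, 5.78% of control (-4.12 on the log2 scale, SE 0.0272, edgeR adjusted p = 5.7e-75). Library totals were 28323403 to 34913500 counts. The squamous and simple epithelial markers KRT5, KRT14, KRT6A, KRT17, TP63, KRT8, KRT18, EPCAM and CDH1 (here the E-cadherin gene) were all measured, with a summed level of 2912 to 3004 CPM in control and 5139.8 to 5283 CPM in knockdown libraries. KRT14 (8.35 and 4.89 CPM) and KRT6A (6.04 and 1.96 CPM) were the lowest of the 9 in control and knockdown libraries. These and TP63 (176 and 129 CPM) had lower means after knockdown, and KRT5, KRT17, KRT8, KRT18, EPCAM and CDH1 had higher ones. Of the markers of other cells, 3 of 8 immune, 4 of 4 endothelial and 5 of 6 fibroblast genes were in the table. Their sums were 212 to 225 and 102 to 106 CPM for immune genes (nearly all CD68, a lysosomal gene, with CD14 and LYZ below 1 CPM), 2.15 to 2.45 and 1.24 to 1.84 CPM for endothelial genes, and 3.50 to 3.64 and 7.81 to 8.69 CPM for fibroblast genes (mostly COL1A1, with COL1A2, COL3A1 and DCN near 0). Their part in the results was not tested.

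All 10 genes rose in the shHNRNPC libraries, by 0.51 to 1.49 on the log2 scale with a median of 0.89, against a median of -0.01 over all tested genes (adjusted p below 0.05 in the quasi-likelihood test of edgeR). Called rises made up 38.7% of all tested genes and called falls 38.6%, so a call by itself was common here. None of the 10 fell, and DESeq2 called none lower (0 genes). With all 10 called higher, an unadjusted p in the same fit could give no fall. Rises of at least 1.5-fold were found for 8 of the 10, against 9.61% of tested genes, and CDK1 and FZR1 were the ones below that size. In all 10 every knockdown library lay above every control library, which held for 35.4% of tested genes. Together the 10 genes took 980.4 ± 14.9 CPM (SD, n = 4) in control and 1813 ± 5.19 CPM in knockdown libraries. In bulk RNA, more cells in G2 and M phase and more of these transcripts per cell cannot be told apart.

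**Figure D2:**
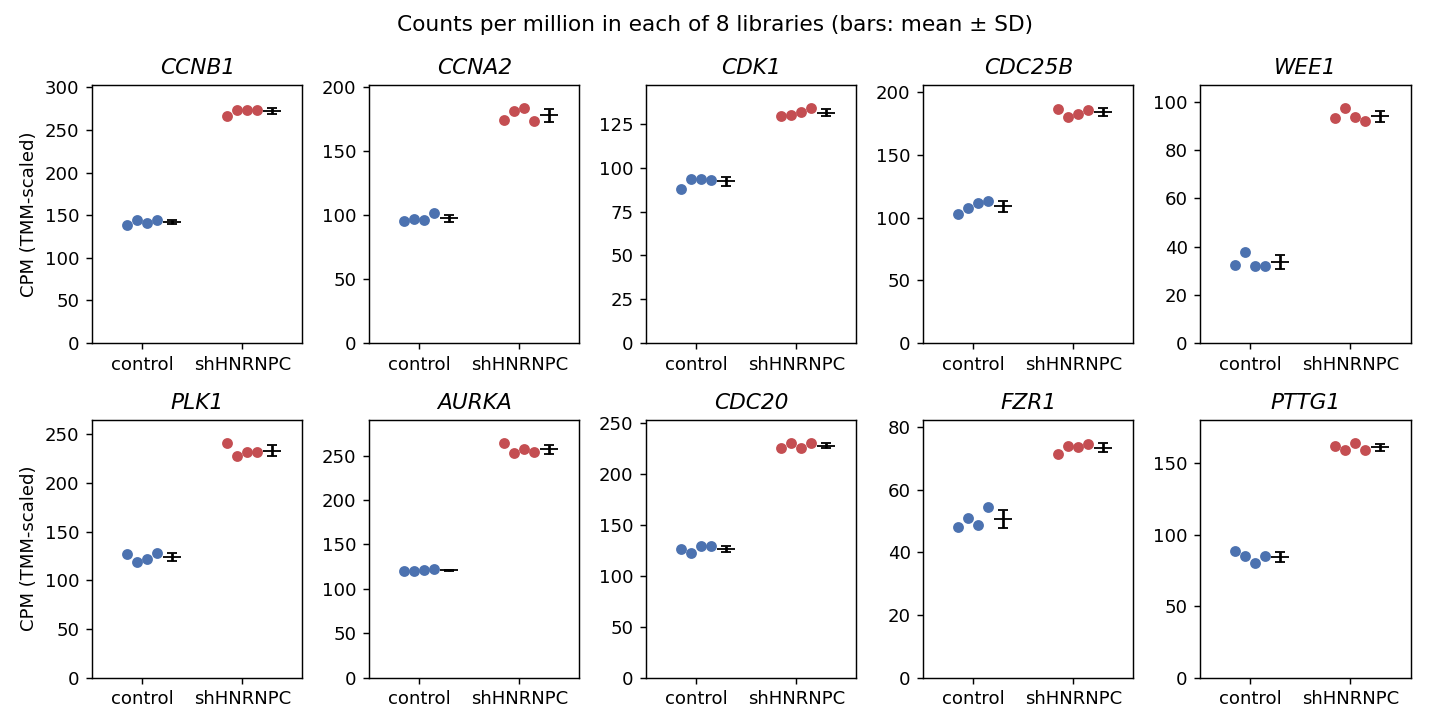
CPM of each gene in the 4 control and 4 shHNRNPC libraries, with mean and SD beside the points and axes from 0. The groups are separate in all 10 panels, with the narrowest gap for FZR1 (17.0 CPM).

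CCNB1 (chr5:69167150-69178245), cyclin B1, the partner of CDK1 at mitotic entry, was at 139, 144, 141 and 144 CPM in control and 267, 274, 273 and 274 CPM in knockdown libraries. Its level was thus 1.92 times the control mean, and the lowest knockdown library stood 123 CPM above the highest control. On the log2 scale this was 0.94 (SE 0.0226, edgeR adjusted p = 1.2e-44). CCNA2 (chr4:121816444-121823883), cyclin A2, which pairs with CDK2 in S phase and with CDK1 in G2, was at 95.0, 97.0, 95.8 and 101 CPM in control and 174, 181, 183 and 173 CPM in knockdown libraries. This rise of 0.87 (SE 0.0265, edgeR adjusted p = 4.8e-39) was close to that of CCNB1. EXOSC9 shares 9.08% of the CCNA2 exon bases and was at 32.8 ± 2.42 CPM (SD, n = 4) after knockdown, 103% of control.

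CDK1 (chr10:60778331-60794852), the catalytic partner of both cyclins, changed least of the 10. It was at 88.2, 93.9, 93.6 and 93.2 CPM in control and 129.9, 130.2, 132 and 134 CPM in knockdown libraries. The groups stayed 36.0 CPM apart, and CDK1 rose by 0.51 on the log2 scale (SE 0.0277, edgeR adjusted p = 7.3e-26).

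The opposing regulators of the inhibitory CDK1 phosphate both rose. CDC25B (chr20:3786951-3806115), the phosphatase, was at 103, 108, 112 and 113 CPM in control and 187, 180.3, 183 and 186 CPM in knockdown libraries, a log2 fold change of 0.76 (SE 0.0261, edgeR adjusted p = 4.5e-36). WEE1 (chr11:9573670-9589985), the inhibitory kinase, was at 32.3, 37.9, 32.0 and 31.9 CPM in control and 93.2, 97.4, 93.9 and 92.2 CPM in knockdown libraries. WEE1 had the largest change of the 10, 2.81 times the control mean, and control replicate 2 was the high value of its group. WEE1 rose by 1.49 on the log2 scale (SE 0.0405, edgeR adjusted p = 2.1e-35). Only 1.09% of tested genes had a larger rise.

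The mitotic kinases PLK1 and AURKA both rose. PLK1 (chr16:23678889-23690367), which acts from mitotic entry to cytokinesis, was at 127, 119, 122 and 128 CPM in control and 241, 228, 232 and 232 CPM in knockdown libraries (log2 fold change 0.91, SE 0.0248, edgeR adjusted p = 1.1e-41). ERN2 and AC008870.3 overlap 12.5% of its exon bases. ERN2 had at most 0.0318 CPM in any library, AC008870.3 was not analysed here, and its part in the PLK1 counts was not tested. AURKA (chr20:56369390-56392215), which acts at centrosomes and spindle poles and activates PLK1, was at 119.9, 120.0, 121 and 122 CPM in control and 264, 253, 257 and 254 CPM in knockdown libraries. Control libraries of AURKA lay between 119.9 and 122 CPM, the tightest of any of the 10 genes, and its log2 fold change of 1.09 (SE 0.0233, edgeR adjusted p = 2.1e-47) was next to that of WEE1. AURKB, the paralog of the chromosomal passenger complex, rose less, from 78.1 ± 4.37 to 101 ± 1.93 CPM (SD, n = 4; 0.37).

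Both APC/C co-activators rose, CDC20 more than FZR1. CDC20 (chr1:43358981-43363203) was at 126, 122, 129 and 129 CPM in control and 226, 230.1, 226 and 230.1 CPM in knockdown libraries (log2 fold change 0.85, SE 0.0240, edgeR adjusted p = 1.0e-40). FZR1 (chr19:3506311-3538334) was at 48.0, 50.8, 48.8 and 54.5 CPM in control and 71.4, 73.9, 73.7 and 74.7 CPM in knockdown libraries (0.54, SE 0.0367, edgeR adjusted p = 5.2e-21). PTTG1 (chr5:160421855-160428744), securin, which blocks separase until APC/C-CDC20 destroys it, was at 88.3, 85.0, 79.9 and 85.1 CPM in control and 162, 159.5, 164 and 159 CPM in knockdown libraries. Its log2 fold change of 0.93 (SE 0.0277, edgeR adjusted p = 1.6e-39) lay within error of that of CCNB1. The PTTG1 value is uncertain because near-identical copies elsewhere in the genome can share its reads.

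**Figure D3:**
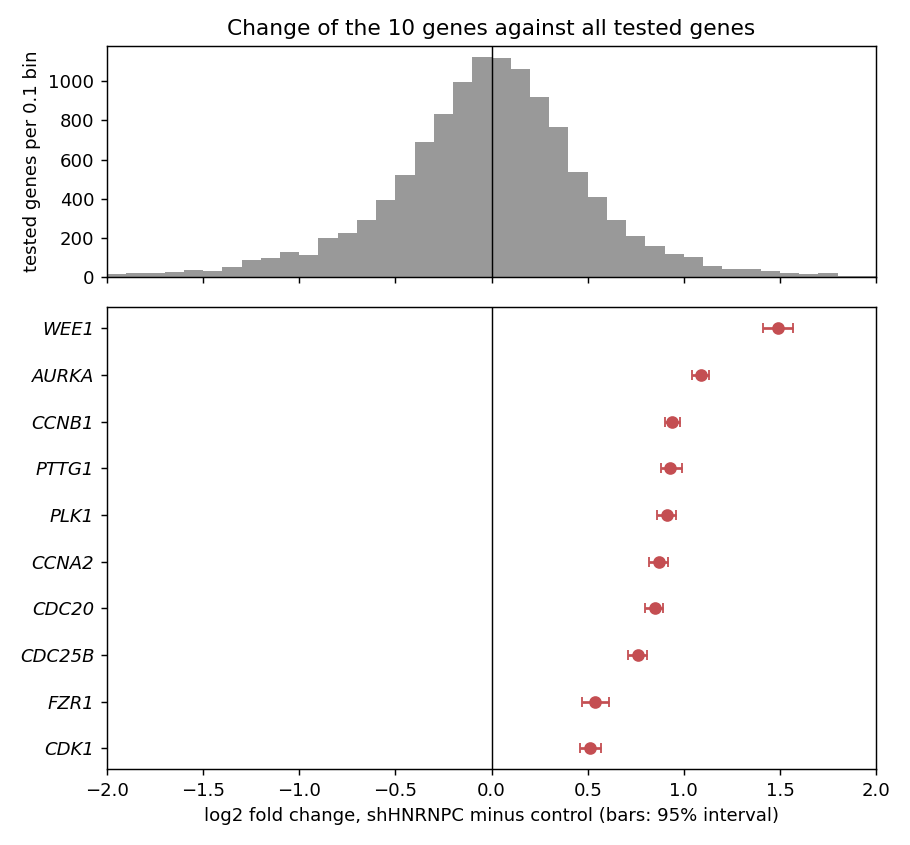
Log2 fold change of each gene with 95% intervals (below) and the distribution over the tested genes on the same axis (above), whose tails run past the axis. WEE1 (1.49) and AURKA (1.09) lead, 6 genes lie between 0.76 and 0.94, and FZR1 (0.54) and CDK1 (0.51) are lowest.

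The size of the rise separated the genes into steps. The 95% interval of WEE1 (1.41 to 1.57) and that of AURKA (1.04 to 1.13) overlapped no other. Those of CCNB1 (0.90 to 0.98), PTTG1 (0.88 to 0.99), PLK1 (0.86 to 0.96), CCNA2 (0.82 to 0.92) and CDC20 (0.80 to 0.89) formed a run in which each overlapped the next. CDC25B (0.71 to 0.81) reached only the lower end of CDC20, and FZR1 (0.47 to 0.61) and CDK1 (0.46 to 0.57) overlapped each other. Against all tested genes, 2.50% rose more than AURKA, 3.80% more than CCNB1, 11.5% more than FZR1 and 12.5% more than CDK1. The coefficient of variation between replicates was 0.868% (AURKA) to 8.81% (WEE1) in control and 1.13% (CDC20) to 2.61% (CCNA2) in knockdown libraries.

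Levels were compared between genes as CPM per kilobase of annotated exon (all GENCODE exons of a gene joined, so genes with long rare exons are understated). In control libraries CDC20 (62.2 ± 1.73) and CCNB1 (55.5 ± 0.992) were highest, and FZR1 (8.71 ± 0.495) and WEE1 (3.63 ± 0.320) lowest (mean ± SD, n = 4). The neighbours PTTG1 (42.0 ± 1.73) and AURKA (41.3 ± 0.358), and PLK1 (26.1 ± 0.891) and CDC25B (25.2 ± 0.965), overlapped in range, and the other neighbours in the order did not. After knockdown CDC20 (112 ± 1.27) and CCNB1 (106 ± 1.24) still led on this scale. AURKA (87.7 ± 1.63) then stood above PTTG1 (80.1 ± 1.23), and WEE1 (10.2 ± 0.244) came close to FZR1 (12.7 ± 0.241), with no neighbouring ranges overlapping.

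Because the genes rose by different amounts, 6 ratios of partners or opponents were computed from the read counts within each library, where library scaling cancels. The ratio of CDC25B to WEE1 counts was 3.20, 2.84, 3.49 and 3.53 in control and 2.01, 1.85, 1.95 and 2.01 in knockdown libraries. This ratio of transcripts thus moved toward WEE1, by -0.73 on the log2 scale, and protein and activity were not measured. Other genes of the entry switch, CDC25A (0.93), CDC25C (0.63) and PKMYT1 (0.77, 31.6% of its exon bases overlapping other genes), also rose. They are not part of the ratio. The ratio of CDC20 to FZR1 counts moved toward CDC20, from 2.51 ± 0.143 to 3.10 ± 0.0424 (SD, n = 4), a log2 difference of 0.31. CCNB1 to CDK1 went from 1.54 ± 0.0285 to 2.07 ± 0.0269 (SD, n = 4), a difference of 0.43.

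The remaining 3 pairs included the smallest and the largest rise of a ratio. The ratio of CCNB1 to CCNA2 changed from 1.46 ± 0.0299 to 1.53 ± 0.0368 (SD, n = 4), and its groups were separate by a margin too small to show at this rounding (1.49 in control replicate 2 and in shHNRNPC replicate 3). PLK1 to AURKA changed from 1.03 ± 0.0326 to 0.910 ± 0.00720 (-0.17). PTTG1 to ESPL1, securin to separase, changed from 1.07 ± 0.0855 to 1.48 ± 0.0508 (0.47). For each of the 6 ratios all knockdown libraries lay on one side of all control libraries, and an exact permutation test, two-sided, returned p = 0.0286 (Benjamini-Hochberg adjusted over the 6 ratios, 0.0286), the smallest value that 70 assignments of 4 and 4 samples allow. How often other pairs of genes separate in this way was not counted. Of all tested genes 38.7% were called higher and 38.6% lower, so such separation may be common. A ratio shows unequal change and says nothing about which partner moved.

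**Figure D4:**
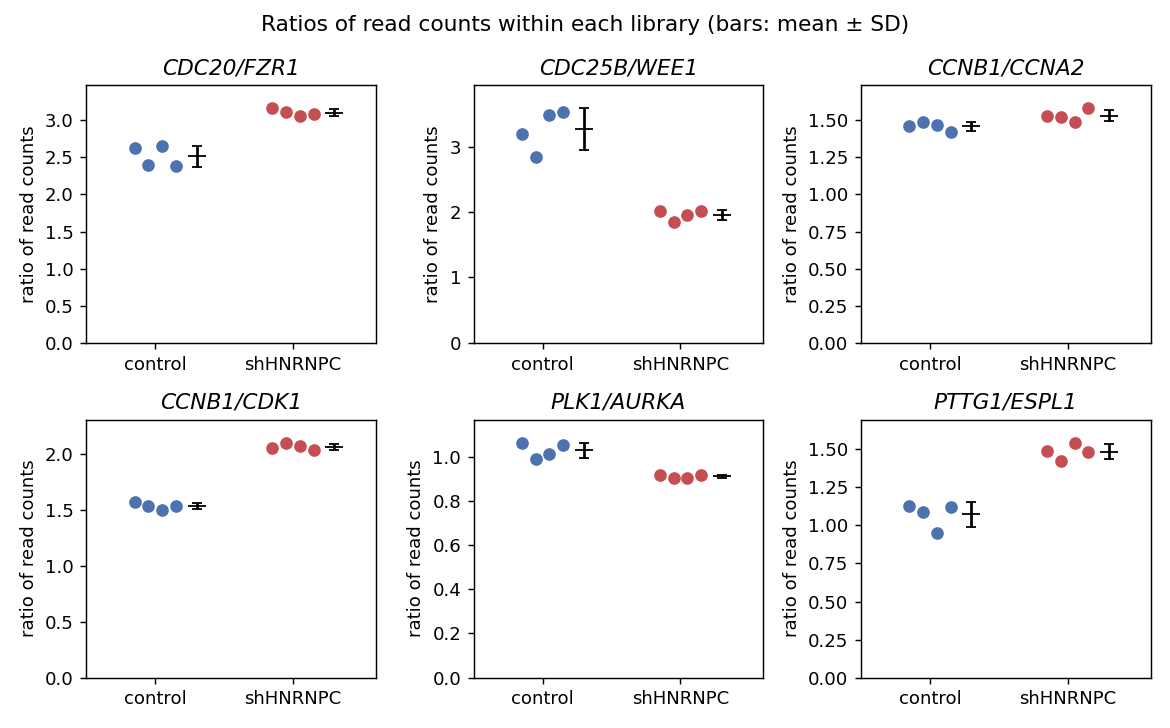
Ratios of read counts within each library for 6 pairs, with mean and SD and axes from 0. CDC25B/WEE1 and PLK1/AURKA are lower in all 4 shHNRNPC libraries, and the remaining 4 ratios are higher.

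Other genes of the entry switch were called in both directions. Of 24 regulators outside the 10 (among them CCNB2, CDC25A, CDC25C, PKMYT1, the Aurora cofactors TPX2 and BORA, the Greatwall kinase MASTL and the CDK7 complex), 16 rose, 4 fell and 4 were not called, with a median of 0.33, beside 38.7% higher and 38.6% lower over all tested genes. CCNF, cyclin F, a ubiquitin ligase subunit, rose most (from 40.7 ± 1.08 to 117 ± 1.34 CPM, SD, n = 4; 1.52; 11.8% of its exon bases overlap other genes), and CKS2, a small CDK1-binding protein, went from 71.2 ± 2.49 to 145 ± 3.44 CPM (1.03). BTRC, the F-box protein that targets WEE1 for destruction, fell from 47.3 ± 1.36 to 22.3 ± 0.751 CPM (-1.08, edgeR adjusted p = 8.6e-31), and its groups did not overlap.

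Of the 14 APC/C core subunits 6 rose and 4 fell, with a median of 0.06 and a range of -0.40 to 0.45. These counts are near the shares over all tested genes (38.7% higher, 38.6% lower), and the higher count was 4 with library size only or upper quartile factors and without shHNRNPC replicate 1. CDC27, which binds the co-activators, rose from 108 ± 3.02 to 148 ± 3.61 CPM (SD, n = 4), while the small subunits ANAPC16 (-0.40) and ANAPC13 (-0.37) fell. None of the 14 passed the 1.5-fold size in either direction. Among 10 tested E2 enzymes, inhibitors and checkpoint partners 7 rose and 1 fell (median 0.22). UBE2C and UBE2S, the E2 enzymes that start and extend ubiquitin chains on APC/C substrates, rose by 0.61 and 0.32, and TRIP13, which remodels the checkpoint protein MAD2, by 0.87.

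Substrates of the APC/C and separase rose in 17 of 18 cases, with a median of 0.66. Over all tested genes 38.7% were called higher and 38.6% lower. None of the 18 fell by edgeR or with DESeq2 (0 genes). An unadjusted p below 0.05 in the edgeR fit could concern only the 1 gene not called, and gave 0 falls. The largest rises were those of ANLN (anillin, a scaffold of the cytokinetic ring), from 402 ± 7.25 to 1019 ± 5.37 CPM (SD, n = 4; 1.34), of thymidine kinase TK1 (1.14) and of CDCA3 (1.09). ESPL1, separase, rose by 0.46. The 1 gene not called was GMNN, geminin, at 97.3% of control. With upper quartile factors 1 of the 18 was called lower.

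Of 21 regulators of cell cycle promoters 10 were called higher and 6 lower, with a median of 0.08. These counts too are near the shares over all tested genes (38.7% higher, 38.6% lower), and 8 were higher with DESeq2, library size only, upper quartile factors or no filter. MYBL2, which encodes B-MYB, rose from 101 ± 3.68 to 270.3 ± 7.31 CPM (SD, n = 4; 1.42), and the atypical repressor E2F8 by 0.69. FOXM1, counted above among the APC/C substrates and not among these 21, rose from 195 ± 6.04 to 302 ± 1.56 CPM (0.64, with 15.9% of its exon bases overlapping ITFG2). NFYA, a subunit of the factor that binds CCAAT boxes, fell from 41.1 ± 2.15 to 25.9 ± 1.15 CPM (-0.66), and the log2 fold changes of NFYB and NFYC were 0.11 and 0.26. Of 8 cyclins and CDKs of G1 phase, 5 rose and 1 fell (median 0.42), led by CDK6 (0.84), CDK2 (0.76, with 16.8% of its exon bases overlapping other genes) and CCNE2 (0.64, 37.1% overlapping). No test compared these lists with each other or with the remaining genes.

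**Figure D5:**
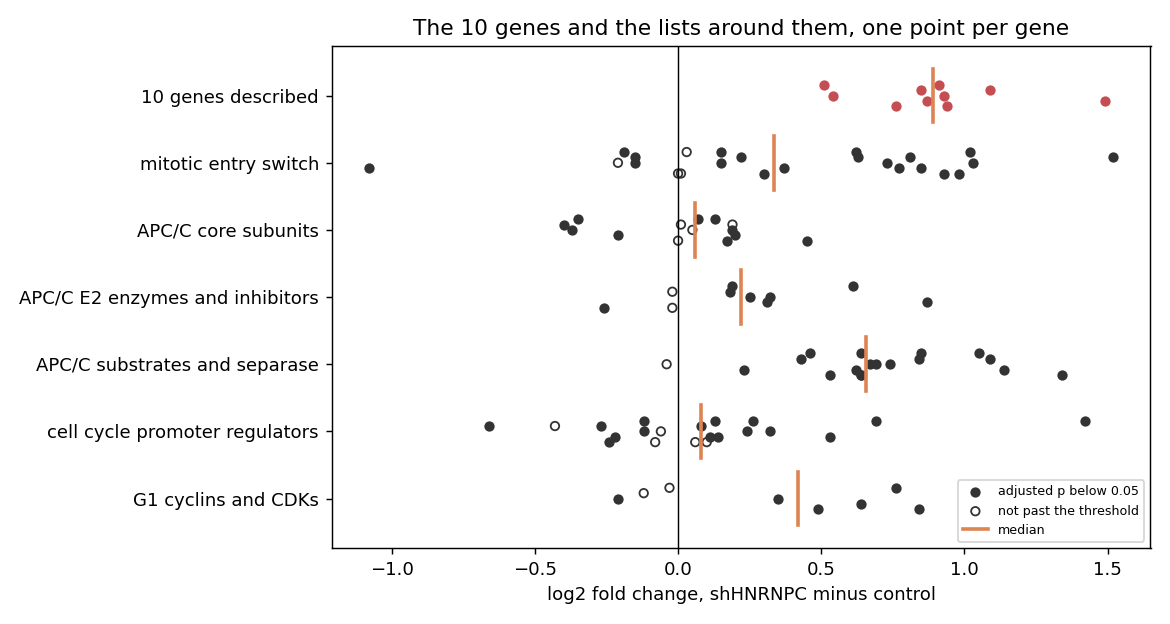
Log2 fold change of each of the 10 genes (top row) and of the tested genes in 6 lists of their regulators and targets, with filled points past the threshold and a bar at each median. The 10 genes have a median of 0.89, the APC/C substrates 0.66 and the APC/C core 0.06.

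In the annotation deposited with the counts, 9 of the 10 genes carry the cell cycle pathway and 7 carry the G2/M transition term, and these sets were looked at after the values were known. Without the 10 genes, 65 of 110 tested cell cycle pathway genes rose and 26 fell (median 0.15), and 63 of 118 G2/M transition genes rose and 28 fell (median 0.11). Over all tested genes 38.7% were called higher and 38.6% lower, with a median of -0.01.

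The genes closest to CCNB1 in course over the 8 libraries were none of the other 9. By the root mean square difference in log2 CPM, after centring each gene on its control mean, the 5 nearest tested genes were PLEKHB2 (0.0217), TFRC, the transferrin receptor (0.0228), GALNT2, a glycosyltransferase (0.0272), COL4A2, a collagen IV chain (0.0275), and EPS8, a substrate of the epidermal growth factor receptor (0.0276). PTTG1 was the nearest of the other 9 genes at rank 34, followed by PLK1 at 43 and CCNA2 at 53, and WEE1 was farthest at rank 1893. With 2 groups this measure mostly reads the size of the group difference.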

How the data were processed

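Gene counts of 4 control and 4 shHNRNPC samples were analysed. The authors deposited raw counts in 1 table. Per the labels, the RNA was poly(A) selected and read as pairs of 150 bp. Per the series design text, fastp filtered the reads. The submitters' processing notes name hg38. Aligner, counter and strandedness: not given in the sources used here. Reads of genes that overlap on opposite strands may therefore be mixed.

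Genes that passed filterByExpr (minimum count 10, minimum total 15; 12001 of 16082) were scaled with TMM factors and compared by group with the robust quasi-likelihood F test of edgeR 4.0.16 in R 4.3.3. P-values were adjusted by Benjamini-Hochberg over all of them, with a threshold of 0.05. The SE of a log2 fold change is its size divided by the square root of F. Ratios were tested with exact permutations of the samples. On simulated counts for this comparison (11962 genes), recovery was 44 of 50 genes at 1.25-fold, 45 of 50 at 1.5-fold, 49 of 50 at 2-fold and 50 of 50 at 4-fold, with 11 false calls. A state in which most genes change was not simulated. Libraries of 1 group differed from each other by more than counting noise (chi-square per degree of freedom, 2.66 to 3.70), so no count column is a second copy of another. Whether they share a culture or an RNA sample is not shown by this. Alternatives were DESeq2 1.42.0, other scalings and filters, a replicate block and libraries left out.

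Members and lists were chosen with earlier results of these data known. The text names the 10 members, HNRNPC, up to 3 called genes per list (largest change, at least 1 CPM), ESPL1 and the 5 genes nearest to CCNB1. AURKB, EXOSC9, ERN2, GMNN, NFYB, NFYC, FOXM1, CDC25A, CDC25C and PKMYT1 were added after their values were seen. Promoters and gene positions are from RefSeq (GRCh38.p14), and exon lengths and exon overlaps from GENCODE 29. A planned search for degron words in the proteins was not run.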

Additional observations from a re-analysis of the deposited data

Results flagged for a closer look

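In 4 of 72 groups of 4 libraries, 1 library stood apart from the other 3: its gap to the nearest, divided by the range of the group, passed Dixon's limit, and chance flags about 1 in 20 such groups. For WEE1, control replicate 2 (37.9 CPM) was above the other control libraries (31.9 to 32.3 CPM), with a ratio of 0.937. For CDK1, control replicate 1 (88.2 CPM) was below the others (93.2 to 93.9 CPM), with a ratio of 0.873. For CCNB1, shHNRNPC replicate 1 (267 CPM) was below the others (273 to 274 CPM), with a ratio of 0.842. For BTRC, control replicate 4 (45.2 CPM) was below the others (47.8 to 48.1 CPM), with a ratio of 0.880. Each of these genes kept its call without the library in question: without it, the log2 fold change was 1.55 for WEE1, 0.49 for CDK1, 0.95 for CCNB1 and -1.10 for BTRC.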

How the results depend on the processing

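All 10 genes kept their direction and their call in each of 15 alternatives, 150 values in all: DESeq2, scaling by library size or upper quartile, no filter or a filter of 1 CPM in 4 libraries, the replicate block, each library left out, and shHNRNPC replicates 1 and 4 left out together. Log2 fold changes ranged from 0.49 to 0.52 for CDK1 and from 1.46 to 1.55 for WEE1. Requiring at least 1.5-fold left 8 of the 10, and 1153 higher and 1470 lower genes of all tested. It left 11 higher genes and 1 lower gene in the entry switch list, and 13 higher and 0 lower APC/C substrates. APC/C subunits kept 0 higher and 0 lower, and E2 enzymes and inhibitors 2 higher and 0 lower. Promoter regulators kept 2 higher and 1 lower, and G1 genes 3 higher and 0 lower. Lower calls became 1 of the APC/C substrates with upper quartile factors and 2 of the G1 genes with upper quartile factors or library size only. Apart from the fold rule, higher calls ranged from 4 to 7 among APC/C subunits and from 8 to 10 among promoter regulators, where lower calls ranged from 5 to 7. In the entry switch list lower calls ranged from 3 to 4 and higher calls from 15 to 16.

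Leaving out 1 library moved the ratios to 0.28 to 0.33 (CDC20/FZR1), -0.80 to -0.70 (CDC25B/WEE1), 0.05 to 0.08 (CCNB1/CCNA2), 0.42 to 0.44 (CCNB1/CDK1), -0.19 to -0.16 (PLK1/AURKA) and 0.41 to 0.49 (PTTG1/ESPL1). The exact test cannot go below 0.0571 there, nor below 0.125 over same-numbered pairs, so neither bears on stability. Adding 0.5 to each count changed none of the 6 ratios' directions or calls, and at counts of 1004 or more it could hardly do so. With same-numbered pairs as a replicate block the log2 differences were again 0.31, -0.73, 0.07, 0.43, -0.17 and 0.47. Each group holds every number once, so these values could not differ and do not bear on stability either. No sign was seen that the numbers pair the samples, although this check cannot exclude it. Same-numbered libraries correlated at -0.0552 to 0.0170 in their deviations from group means, and 2 of 8 libraries correlated best with their own number. With the block edgeR called 4605 genes higher and 4614 lower, and the same 10 members higher.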
